A study of Homo sapiens with 6 samples.

Results

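The lysosomal proton pump, the enzymes and other proteins of the lysosome, and the MiT transcription factors were followed in K562 cells under iron chelation. The set held 39 genes of the 62252 in the annotation, chosen by symbol: the factors TFEB, TFE3 and MITF, 16 genes of the vacuolar ATPase (V-ATPase) and its accessory proteins, 13 lysosomal hydrolases, 2 lumenal proteins that handle lipids, and 5 proteins of the lysosomal membrane. K562 is an established erythroid leukemia cell line that grows in suspension. The Chelator group (3 libraries) was treated overnight with 10 µM 21H7, a cell-permeable iron chelator, and the DMSO group (3 libraries) received a matched volume of the solvent, with no genetic change in either. Both groups were polyadenylated RNA of the same line in the same medium. The labels number the libraries as replicates without saying whether they came from separate cultures, so p-values measure the spread between these libraries, which may be technical.

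The V-ATPase is a rotary pump. Its V1 sector, in the cytosol, splits ATP, and its V0 sector, in the membrane, carries protons into the lumen, where the low pH keeps the hydrolases active and helps release iron from transferrin and from ferritin delivered for breakdown. TFEB, TFE3 and MITF are related helix-loop-helix leucine zipper factors that are held in the cytosol by mTORC1 signaling on the lysosome, and that on entering the nucleus activate many lysosomal and autophagy genes through an E-box. What was measured here is steady-state mRNA, so pump activity, enzyme activity and the location of the factors are outside these data.

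The DMSO libraries held 78.6 M to 90.4 M estimated counts (reads assigned to transcripts by salmon, which need not be whole), and the Chelator libraries 85.4 M to 101 M. The mean fragment length was 252 to 264 bases in DMSO and 200 to 218 bases in Chelator, and an effect of the treatment and one of fragment length cannot be told apart. Gene values are normalized counts, which are estimated counts summed per gene and scaled for library size and transcript length, and TPM, which is per length and allows genes to be compared with each other. In bulk RNA, fewer cells of a type and less RNA per cell cannot be told apart. Of the K562 erythroid markers all 9 were detected, with summed levels of 12377 to 13720 TPM in DMSO and 17495 to 18682 TPM in Chelator. Of these 9, 4 were higher, 3 lower and 2 did not pass, with a median log2 fold change of 0.14, where 37.7% of all genes tested passed and 59.9% of those at least as abundant as the least abundant member. The sum is dominated by globins. In that list HBE1 (embryonic globin) rose by 0.76 on the log2 scale and KLF1 (an erythroid transcription factor) fell by 0.72 on the log2 scale (DESeq2 adjusted p = 2.5e-17 and 4.59e-23).

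The 39 genes moved in both directions and, with 1 exception, by small amounts. With DESeq2's Wald test at an adjusted p under 0.05, 14 were higher in Chelator, 9 were lower and 16 did not pass, which is 59.0% passing. Over all 24542 genes tested 37.7% passed, 19.5% higher and 18.3% lower, but many of those genes are less abundant than any member. Among the 11879 genes at least as abundant as the least abundant member (GAA, mean normalized count 216), 59.9% passed, with 26.8% higher and 33.1% lower. The share of members that passed was therefore close to that of these genes, which are called genes of like abundance below. They share the members' lower limit of abundance but were not matched to the members' levels. Centred on the mean log2 change of all genes (0.18) in place of the median ratio, which moves the median of all genes to -0.17, 8 members were higher and 15 lower. In the fit as first described, members had a median log2 fold change of 0.09 and all genes tested one of 0.02. In 26 of the 39 the values of the groups did not overlap, against 66.8% of the genes of like abundance and 49.2% of all genes tested. A log2 fold change above 1 was reached by 1 member, the protease gene CTSL, where 7.25% of the genes of like abundance passed both thresholds (5.39% higher, 1.86% lower) and 10.8% of all genes tested (8.18% higher, 2.6% lower).

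**Figure D1:**
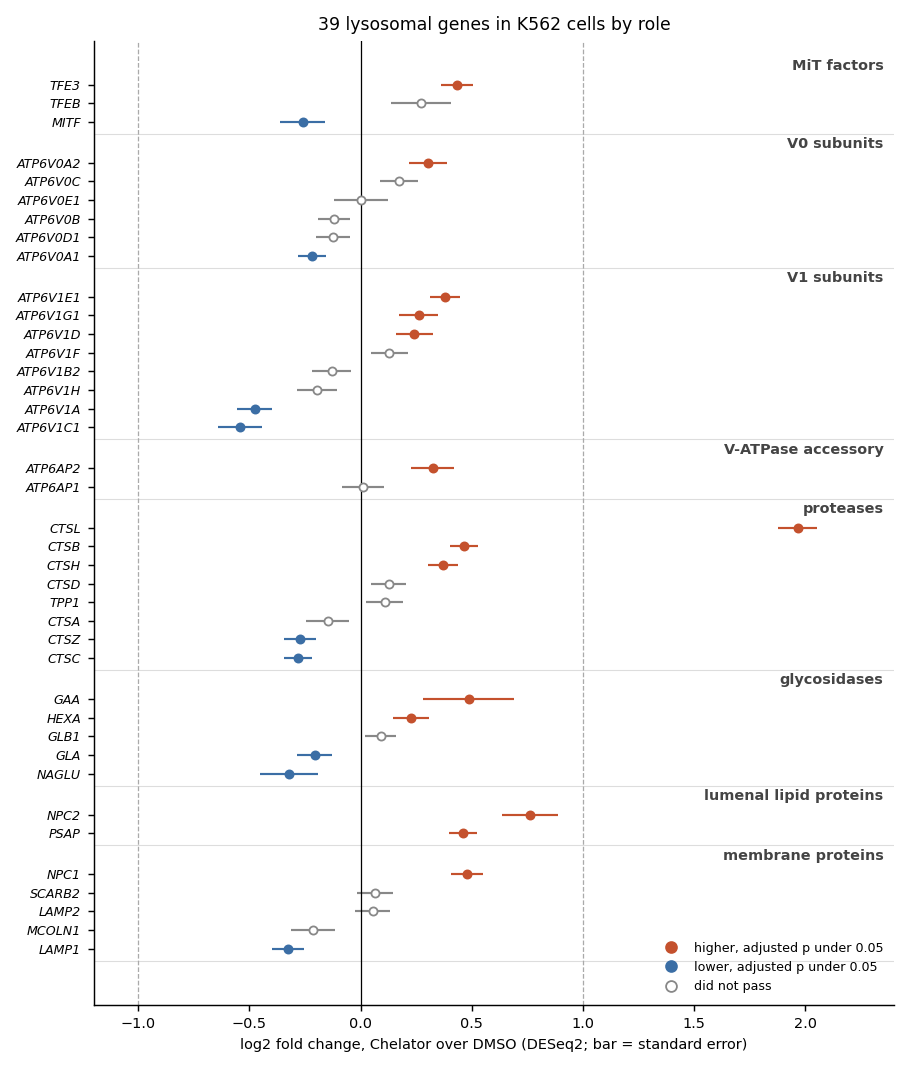
Log2 fold change of each of the 39 genes, Chelator over DMSO, from DESeq2 (3 libraries per group), grouped by role, with bars for the standard error. Filled points passed an adjusted p of 0.05 (red higher, blue lower), open grey points did not, and dashed lines mark a log2 fold change of 1 in either direction. CTSL, at 1.97, stands beyond the line, and the proton pump subunits lie between -0.54 and 0.38.

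Of the 3 MiT factors, TFE3 rose, MITF fell and TFEB did not pass. TFE3 is the MiT factor with the most mRNA in these cells. Its normalized counts were 5135, 4892 and 5259 in DMSO and 7163, 6836 and 6638 in Chelator. All 3 Chelator libraries lay above all 3 DMSO libraries, a 1.35-fold rise (log2 fold change 0.43, SE 0.07, DESeq2 adjusted p = 1.78e-08). MITF, known best as the master factor of pigment cells, had 3016, 2785 and 3305 in DMSO and 2786, 2494 and 2317 in Chelator. The groups overlapped by 1 library, with a log2 fold change of -0.26 (SE 0.10, adjusted p = 0.0292). TFEB had 450, 427 and 481 in DMSO and 532, 541 and 566 in Chelator. These values did not overlap either, but the log2 fold change of 0.27 (SE 0.13) did not pass (adjusted p = 0.0968).

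Per length, the 3 factors together amounted to 33.3 to 37.3 TPM in DMSO and 40.1 to 42.7 TPM in Chelator. MITF made up 34.6% to 36.7% of that sum in DMSO and 24.5% to 26.8% in Chelator, while TFE3 went from 56.4% to 58.6% up to 66.6% to 67.8%. The share of TFEB lay at 6.75% to 6.85% in DMSO and 6.57% to 7.68% in Chelator, with overlap. The pool of MiT factor mRNA was thus TFE3 before MITF before TFEB in every library. The fall of MITF was not past the threshold in 10 of 16 alternative settings (adjusted p = 0.178 without DMSO replicate 3), and TFEB passed in 2 (adjusted p = 0.0358 with TMM factors).

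MiT factors bind the E-box CACGTG, and a longer form, GTCACGTGAC, marks many lysosomal genes. The promoters of the members were therefore searched on both strands, in RefSeq windows (GRCh38.p14) from 250 bases before to 50 bases after the start site. An entry was found for 29 of the 39 genes. CACGTG was present in 8 of the 29 (27.6%), against 8.77% of the 27305 genes with a window and 7.26% of all 35116 windows. Those 27305 genes were not limited to genes expressed in these cells. The 8-base form TCACGTGA, which holds CACGTG, was present in 6 (20.7%, against 1.18% of genes), and GTCACGTGAC, which holds both, in 3 (10.3%, against 0.421% of genes). The variant TCATGTGA was found in ATP6V0C and TPP1 (6.9%, against 1.24% of genes). The 8 stretches with CACGTG are shown because they carry the motif of the factors just described. Each is written 5′ to 3′ along the gene, with the E-box in capitals to the longest form present.
ATP6V1G1, chr9:114587694-114587733, plus strand: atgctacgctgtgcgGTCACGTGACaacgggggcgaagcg
GAA, chr17:80101488-80101572, plus strand: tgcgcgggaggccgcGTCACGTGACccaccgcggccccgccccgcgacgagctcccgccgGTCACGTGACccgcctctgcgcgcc
MCOLN1, chr19:7522566-7522632, plus strand: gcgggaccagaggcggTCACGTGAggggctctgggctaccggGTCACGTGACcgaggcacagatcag
ATP6V0D1, chr16:67481194-67481233, minus strand: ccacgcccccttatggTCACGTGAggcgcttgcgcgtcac
CTSA, chr20:45891276-45891332, plus strand: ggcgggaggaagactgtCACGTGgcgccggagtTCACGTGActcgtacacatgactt
ATP6V0B, chr1:43974886-43974943, plus strand: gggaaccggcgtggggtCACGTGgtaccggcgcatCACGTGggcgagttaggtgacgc
CTSD, chr11:1763952-1763991, minus strand: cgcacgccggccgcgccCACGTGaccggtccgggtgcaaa
LAMP1, chr13:113297030-113297260, plus strand: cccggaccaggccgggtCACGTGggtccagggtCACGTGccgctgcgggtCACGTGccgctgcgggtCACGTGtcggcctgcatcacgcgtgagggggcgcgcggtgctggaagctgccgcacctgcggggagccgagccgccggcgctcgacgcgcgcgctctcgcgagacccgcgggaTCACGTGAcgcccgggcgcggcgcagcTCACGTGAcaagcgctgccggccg
LAMP1 held 6 E-boxes in its window, and GAA, MCOLN1, CTSA and ATP6V0B held 2 each. Of these 8 genes, ATP6V1G1 and GAA were higher in Chelator, LAMP1 was lower and the other 5 did not pass, with a median log2 fold change of -0.12. Of the 21 genes whose window lacked CACGTG, 9 were higher and 5 lower, with a median of 0.17. Among all genes of like abundance 26.8% were higher and 33.1% lower, and the difference between the 8 and the 21 was not tested. The gene with the largest change, CTSL, is among those 21. The 250 bases before the start that RefSeq gives for it, which lies inside the span of the gene in the annotation of the files, are shown for comparison with the stretches above.
CTSL, chr9:87725869-87726118, plus strand: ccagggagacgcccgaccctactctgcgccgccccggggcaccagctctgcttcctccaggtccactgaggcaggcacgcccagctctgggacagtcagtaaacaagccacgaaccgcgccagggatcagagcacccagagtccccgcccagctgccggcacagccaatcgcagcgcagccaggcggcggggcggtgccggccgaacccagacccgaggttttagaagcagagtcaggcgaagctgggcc
They hold no CACGTG and are 69.2% G or C. A match of letters is not a binding site, and its absence from this window says nothing of the factors.

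The subunits of the proton pump were called in both directions, as were the genes of like abundance. Of the 16 genes, 5 were higher (ATP6V0A2, ATP6V1D, ATP6V1E1, ATP6V1G1 and ATP6AP2), 3 were lower (ATP6V0A1, ATP6V1A and ATP6V1C1) and 8 did not pass, with a median log2 fold change of 0.01, beside 26.8% higher, 33.1% lower and 59.9% passing among the genes of like abundance. In 10 of the 16 the groups did not overlap, beside 66.8% of the genes of like abundance and 49.2% of all genes tested. Centred on the mean change of all genes, 1 was higher and 7 were lower.

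In the V1 sector, ATP6V1A and ATP6V1C1 were lower and ATP6V1E1, ATP6V1G1 and ATP6V1D higher, while the other 3 genes did not pass. ATP6V1A encodes subunit A, which with subunit B forms the head that splits ATP. It had 6103, 6431 and 5853 normalized counts in DMSO and 4566, 4120 and 4543 in Chelator. All Chelator values lay below all DMSO values, a 1.39-fold fall (log2 fold change -0.48, SE 0.08, adjusted p = 1.66e-08). ATP6V1C1, subunit C, which holds the 2 sectors together, had 6764, 6224 and 6309 in DMSO and 5057, 3958 and 4236 in Chelator, with no overlap (log2 fold change -0.54, SE 0.10, adjusted p = 2.62e-07). ATP6V1E1, subunit E of the outer stalks, had 6782, 6310 and 6368 in DMSO against 8500, 8433 and 8357 in Chelator (log2 fold change 0.38, SE 0.07, adjusted p = 1.69e-07). Its partner in the stalks, subunit G (ATP6V1G1), had 5383, 4537 and 5368 against 6085, 5996 and 6240 (log2 fold change 0.26, SE 0.09, adjusted p = 0.00821). Both stalk genes lay higher in every Chelator library than in any DMSO library. ATP6V1D, subunit D of the central shaft, was also higher (log2 fold change 0.24). Centred on the mean change of all genes, ATP6V1G1 was at 0.08 (adjusted p = 0.489) and ATP6V1D at 0.06 (adjusted p = 0.592), and neither passed. ATP6V1D also lost its call with limma at either pseudocount and without DMSO replicate 3 (adjusted p = 0.0615) or Chelator replicate 2 (0.0507), and ATP6V1G1 lost its call without Chelator replicate 3 (0.050034). ATP6V1F, ATP6V1B2 and ATP6V1H did not pass, with log2 fold changes of 0.13, -0.13 and -0.20. Without the length correction ATP6V1F passed as higher (0.28, adjusted p = 0.00367). Centred on the mean change ATP6V1B2 (-0.31) and ATP6V1H (-0.37) passed as lower, the latter also without Chelator replicate 1 (-0.27). With trends on GC content and transcript length removed, the falls of ATP6V1A and ATP6V1C1 were smaller, at log2 fold changes of -0.27 and -0.31.

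In the V0 sector, 1 version of the large subunit a was called lower and another higher. Subunit a forms the proton channels beside the rotating ring, and its versions direct the pump to different membranes. ATP6V0A1 had 20019, 20456 and 21033 normalized counts in DMSO and 18105, 17144 and 17670 in Chelator (log2 fold change -0.22, SE 0.06, adjusted p = 0.0021). ATP6V0A2 had 5118, 5641 and 5466 in DMSO and 6661, 6142 and 7212 in Chelator (log2 fold change 0.30, SE 0.08, adjusted p = 0.00135). Neither gene's groups overlapped. The ring subunits ATP6V0C and ATP6V0B, and ATP6V0D1 and ATP6V0E1, did not pass, with log2 fold changes of 0.17, -0.12, -0.12 and 0.00. Without the length correction ATP6V0E1 passed as lower (log2 fold change -0.26, adjusted p = 0.0241) and ATP6V0C as higher (0.26, adjusted p = 0.0103). ATP6V0B and ATP6V0D1 passed as lower centred on the mean change (both -0.30), with GC and length trends removed (-0.31 and -0.30) and without DMSO replicate 2 (-0.17 and -0.18). The rise of ATP6V0A2 depended on the length correction, since without it the log2 fold change was 0.02. Its call was also lost centred on the mean change (0.12, adjusted p = 0.252) and with limma (adjusted p = 0.0682 and 0.0590 at pseudocounts of 1 and 0.1). With limma ATP6V0A1 lost its call as well (adjusted p = 0.111 and 0.108). Of the 31-base words of the main ATP6V0C transcript, 96.0% were shared with another annotated gene model, which held on average 0.236% as many counts.

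Of the accessory proteins, ATP6AP2, also known as the prorenin receptor and needed for pump assembly, was higher, with 4183, 3313 and 3470 normalized counts in DMSO against 4470, 4723 and 4537 in Chelator (log2 fold change 0.32, SE 0.10, adjusted p = 0.00336). This call too depended on the scaling, with a log2 fold change of 0.16 without the length correction (adjusted p = 0.112) and 0.15 centred on the mean change of all genes (adjusted p = 0.243). Its partner ATP6AP1 had a log2 fold change of 0.01.

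The subunits did not stand at equal levels. In DMSO the mean TPM ran from 364 ± 3.46 (SD, n = 3) for ATP6V1F to 22.4 ± 3.15 for ATP6V0A2. ATP6V1F was followed by ATP6V0C (194 ± 3.92) and ATP6V0B (186 ± 6.40), both of the ring, whose libraries overlapped each other. The catalytic head was uneven, with ATP6V1B2 at 61.1 ± 3.59 TPM and ATP6V1A at 24.3 ± 3.46 TPM in DMSO and 57.0 ± 3.20 and 17.8 ± 0.621 TPM in Chelator. ATP6V1C1, ATP6V1A and ATP6V0A2 were the 3 least abundant and overlapped in DMSO. In Chelator, ATP6V0A2 stood at 28.0 ± 2.02 TPM and the other 2 at 17.1 ± 1.72 and 17.8 ± 0.621. ATP6V1E1 and ATP6V0A1, which overlapped in DMSO at 80.1 ± 6.05 and 81.2 ± 8.07 TPM, stood apart in Chelator at 106 ± 2.80 and 71.1 ± 0.216.

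**Figure D2:**
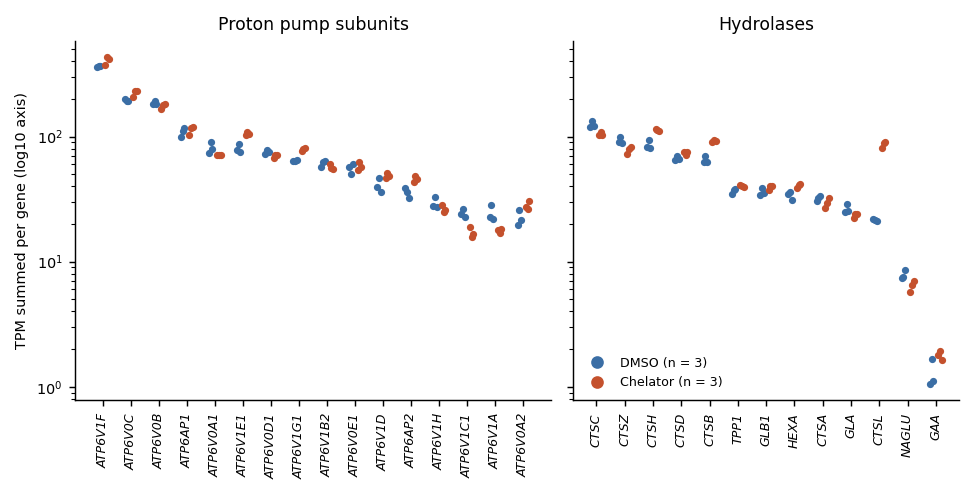
TPM per gene in each library (log10 axis), for the 16 genes of the proton pump and the 13 hydrolases, ordered by their DMSO mean. Blue points are the 3 DMSO and red points the 3 Chelator libraries. CTSL moves from the eleventh place among the hydrolases (21.7 TPM) to the level of CTSB (86.9 against 91.7 TPM).

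Among the hydrolases, the cysteine protease gene CTSL stood apart. Cathepsin L is a lysosomal endopeptidase of the papain family (chr9:87724051-87731469 on the plus strand of GRCh38). Its normalized counts were 2510, 2076 and 2379 in DMSO and 8685, 9004 and 9508 in Chelator. The lowest Chelator library lay far above the highest DMSO library, a 3.91-fold rise (log2 fold change 1.97, SE 0.09, adjusted p = 5.72e-106). In TPM it went from 22.1, 21.7 and 21.3 to 80.7, 88.7 and 91.1. Of the 11879 genes of like abundance, 166 (1.4%) had a larger log2 fold change. The value stayed between 1.79 and 2.02 over 16 alternative settings.

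The other proteases moved less and in both directions. CTSB, cathepsin B, another papain-like protease, had 10871, 10211 and 10758 normalized counts in DMSO and 14902, 14440 and 14616 in Chelator, with no overlap (log2 fold change 0.47, SE 0.06, adjusted p = 5.28e-12). CTSH, an aminopeptidase of the same family, was higher by 0.37 on the log2 scale. CTSC, which activates serine proteases of blood cells and was the most abundant of the 13 hydrolases in DMSO (125 ± 7.88 TPM), had 13371, 12700 and 13569 in DMSO and 10989, 10879 and 10744 in Chelator (log2 fold change -0.28, SE 0.06, adjusted p = 6.08e-05). CTSZ, a carboxypeptidase, had 11301, 10515 and 10968 against 8660, 8888 and 9563 (log2 fold change -0.27, SE 0.07, adjusted p = 0.000596). Both lay lower in every Chelator library. The aspartic protease gene CTSD, CTSA and TPP1 did not pass, with log2 fold changes of 0.13, -0.15 and 0.11. Without the length correction TPP1 passed as higher (0.29, adjusted p = 0.00153). CTSA passed as lower centred on the mean change (-0.32), with GC and length trends removed (-0.29) and without DMSO replicate 2 (-0.22). The papain-like cathepsins thus held the largest rise as well as the largest fall among the proteases. Of the 31-base words of the main CTSD transcript, 54.8% were shared with another annotated gene model, which held on average 2.49% as many counts.

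The glycosidases, which take sugars off glycans and glycolipids, counted 2 higher, 2 lower and 1 not passing of 5, beside 26.8% higher and 33.1% lower among the genes of like abundance. GAA, the acid alpha-glucosidase that breaks down glycogen, had 160, 213 and 166 normalized counts in DMSO and 258, 265 and 230 in Chelator (log2 fold change 0.49, SE 0.21, adjusted p = 0.0481). HEXA, the alpha subunit of beta-hexosaminidase, had 4836, 4277 and 4308 against 5128, 5130 and 5436 (log2 fold change 0.23, SE 0.08, adjusted p = 0.0158). In both the groups did not overlap. NAGLU, which acts on heparan sulfate, had 1246, 1071 and 1430 against 922, 980 and 1094 (log2 fold change -0.32, SE 0.13, adjusted p = 0.0373), with an overlap. GLA, the alpha-galactosidase A, had 2573, 2505 and 2573 against 2165, 2219 and 2248 (log2 fold change -0.21, SE 0.08, adjusted p = 0.0239), with none. GLB1 had a log2 fold change of 0.09, and passed without the length correction (0.32, adjusted p = 0.000111). These 4 calls sit near the threshold, and GAA lost its call in 11 of 16 alternative settings, NAGLU in 8, GLA in 7 and HEXA in 5. Of the 31-base words of the main HEXA transcript 32.7% were shared with another gene model.

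Set side by side, the summed mRNA of the hydrolases was higher in Chelator when CTSL was counted, and that of the pump overlapped between the groups. Over the 13 hydrolases, 5 were higher and 4 lower, with a median log2 fold change of 0.11, against 5 higher, 3 lower and a median of 0.01 over the 16 pump genes. The share passing was 69.2% for the hydrolases and 8 of 16 for the pump, on either side of the 59.9% of the genes of like abundance. These medians moved with the settings: centred on the mean change of all genes they were -0.07 for the hydrolases and -0.17 for the pump, and without the length correction 0.29 and -0.01. Without DMSO replicate 2 the pump median was -0.10, and without DMSO replicate 3 it was 0.10. The summed TPM of the pump was 1418, 1491 and 1435 in DMSO and 1467, 1594 and 1576 in Chelator, with overlap. The summed TPM of the hydrolases was 608, 671 and 615 in DMSO and 711, 737 and 743 in Chelator, without overlap. The hydrolase sum over the pump sum was 0.429, 0.450 and 0.429 in DMSO and 0.485, 0.462 and 0.472 in Chelator. With CTSL taken out, the hydrolase sums were 586, 649 and 594 against 630, 648 and 652, and the ratios 0.413, 0.435 and 0.414 against 0.430, 0.407 and 0.414. Both then overlapped, so the separation of the groups was not present without CTSL. These sums are descriptions with no test.

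Both lumenal lipid proteins were higher, beside 26.8% higher and 33.1% lower among the genes of like abundance. PSAP encodes prosaposin, the precursor of the saposins that present sphingolipids to hydrolases, and it was more abundant than any of the 13 hydrolases. It had 57755, 54272 and 56430 normalized counts in DMSO and 78774, 74325 and 78680 in Chelator (log2 fold change 0.46, SE 0.06, adjusted p = 3.83e-12), or 312 ± 20.7 and 438 ± 7.33 TPM. NPC2, which carries cholesterol within the lumen, had 535, 487 and 460 against 829, 875 and 811 (log2 fold change 0.76, SE 0.12, adjusted p = 7.93e-09). Neither gene's groups overlapped, and NPC2 had the largest change after CTSL.

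Of the 5 membrane proteins, NPC1 was higher, LAMP1 lower and 3 did not pass, beside 26.8% higher and 33.1% lower among the genes of like abundance. NPC1 takes cholesterol from NPC2 and exports it from the lysosome. It had 6387, 6778 and 6003 normalized counts in DMSO and 9008, 8748 and 8966 in Chelator (log2 fold change 0.48, SE 0.07, adjusted p = 5.66e-10). Thus both proteins of lysosomal cholesterol export, NPC1 and NPC2, had more mRNA in every Chelator library. Beside this, the groups did not overlap, in either direction, in 66.8% of the genes of like abundance. NPC1 and NPC2 come from separate role groups and were not tested as a set. LAMP1, a main glycoprotein of the lysosomal membrane and the gene with 6 E-boxes, had 10416, 9874 and 10854 against 8342, 7885 and 8603 (log2 fold change -0.33, SE 0.07, adjusted p = 3.84e-05), with no overlap. Its relative LAMP2, the beta-glucocerebrosidase receptor SCARB2 and the calcium channel MCOLN1 did not pass, with log2 fold changes of 0.05, 0.07 and -0.21. With GC and length trends removed LAMP2 passed as higher (0.32, adjusted p = 0.000173) and MCOLN1 as lower (-0.43, adjusted p = 8.34e-05). MCOLN1 also passed as lower centred on the mean change (-0.39) and without DMSO replicate 2 (-0.27).

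**Figure D3:**
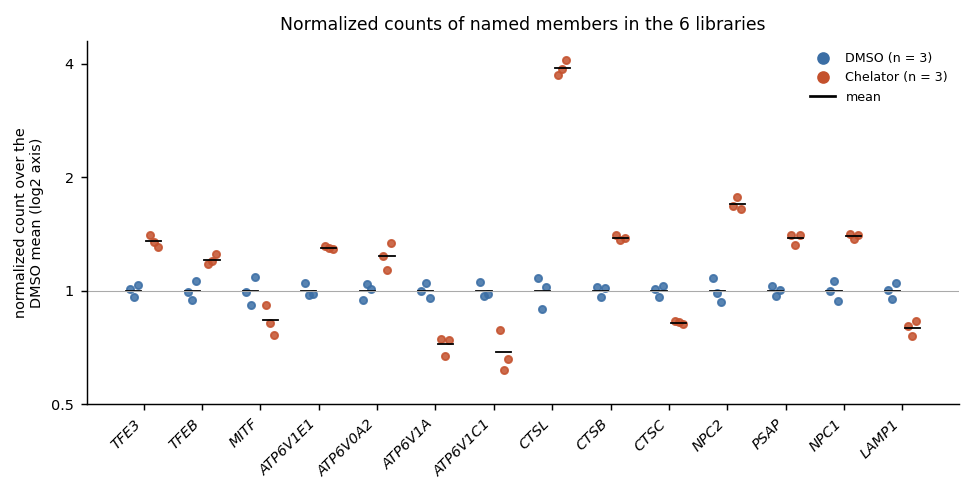
Normalized counts of 14 named genes in each library, divided by the gene's DMSO mean (log2 axis). Blue points are DMSO, red points Chelator (3 libraries each), and black lines the group means. CTSL lies near 4 times its DMSO mean, NPC2 is next, and ATP6V1A, ATP6V1C1, CTSC and LAMP1 lie below 1 in every Chelator library.

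Transcript choice changed within 3 of the 38 genes that could be tested: CTSB, SCARB2 and ATP6V0A2. A gene was called with edgeR's diffSpliceDGE at an adjusted Simes p under 0.05 when a transcript's share of the gene's TPM moved by more than 5 percentage points, which 9.22% of 11938 genes did. The count of members called depended on the test, with 12 by limma and 9 by edgeR's likelihood ratio test. Without Chelator replicate 2 or 3 it was 1, CTSB. The usage test sets a minimum count per transcript, to be met in 3 libraries. A SCARB2 transcript absent from DMSO could not meet it with a Chelator library left out. For SCARB2 the drop therefore cannot show a dependence on the replicate. For CTSB (adjusted p = 3.21e-07), CTSB-225 made up 33.2%, 34.6% and 46.8% of the TPM in DMSO and 17.6%, 14.2% and 18.0% in Chelator. CTSB-210 went from 19.3%, 15.6% and 16.1% to 0.00%, 0.193% and 0.00%. In their place CTSB-204 went from 12.6%, 8.21% and 7.09% to 33.9%, 40.1% and 36.0%. None of these shares overlapped between the groups. CTSB-225 holds a 55-base exon that CTSB-204 lacks, CTSB-210 starts from another first exon and holds an 83-base exon of its own, and CTSB-204 has 1 exon shorter by 3 bases than both (126 against 129 bases). They also differ by up to 29 bases at their ends. All 3 are annotated as protein coding. The shares of such overlapping transcripts are estimates by salmon, since no junction reads were analysed here.

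SCARB2 gained a transcript annotated as a target of nonsense-mediated decay (diffSpliceDGE adjusted p = 9.83e-05). This transcript, SCARB2-212, met the count minimum of the usage test through the Chelator libraries alone. The p-value thus rests on a transcript that entered the test through the group in which it is present. SCARB2-212 had 0 estimated counts in all 3 DMSO libraries against 320, 146 and 261 under Chelator, or 19.4%, 8.53% and 17.2% of the gene's TPM. It differs from the main transcript, SCARB2-201, in an exon that extends 81 bases further (chr4:76166169-76166301 against chr4:76166250-76166301 on the minus strand). It also ends 2715 bases earlier in the last exon and starts 138 bases later in the first. Its coding sequence is annotated as 1296 bases, against 1434 in SCARB2-201. The sum over all SCARB2 transcripts had a log2 fold change of 0.07, so the gene total did not show this. That total depended on the length correction, with a log2 fold change of -0.23 without it (adjusted p = 0.0153) and 0.25 with GC and length trends removed (adjusted p = 0.00812). The call was lost with limma (adjusted p = 0.0867). With any Chelator library left out, SCARB2-212 had counts in too few libraries for the usage test and was not tested. On its other transcripts, SCARB2 was called without Chelator replicate 1 and not without replicate 2 or 3. These settings cannot show whether the gain of SCARB2-212 depends on a replicate.

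In ATP6V0A2 (adjusted p = 0.0171) the full-length transcript fell in share as a truncated one rose. ATP6V0A2-201 made up 45.8%, 38.1% and 41.8% in DMSO and 26.3%, 27.9% and 23.3% in Chelator, and ATP6V0A2-205 made up 14.3%, 9.74% and 10.0% and then 22.8%, 23.7% and 20.9%. ATP6V0A2-205 is annotated as a retained intron. Its last exon (chr12:123754420-123755441, plus strand) runs 904 bases into the intron, it lacks the last 2 exons of ATP6V0A2-201, and its first exon starts 182 bases later. Without DMSO replicate 2 or 3 or Chelator replicate 2 or 3, the call was lost (adjusted p = 0.0705 to 0.114). The counts of ATP6V0A2-201 itself were 4142, 3767 and 3493 in DMSO and 3371, 3615 and 2879 in Chelator, before any scaling, while those of ATP6V0A2-205 were 659, 489 and 429 and then 1504, 1626 and 1394. The mean effective length of the gene went from 3443 bases in DMSO to 2847 in Chelator. The higher gene total rests on the correction for that length, since without it the total had a log2 fold change of 0.02 (adjusted p = 0.888).

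**Figure D4:**
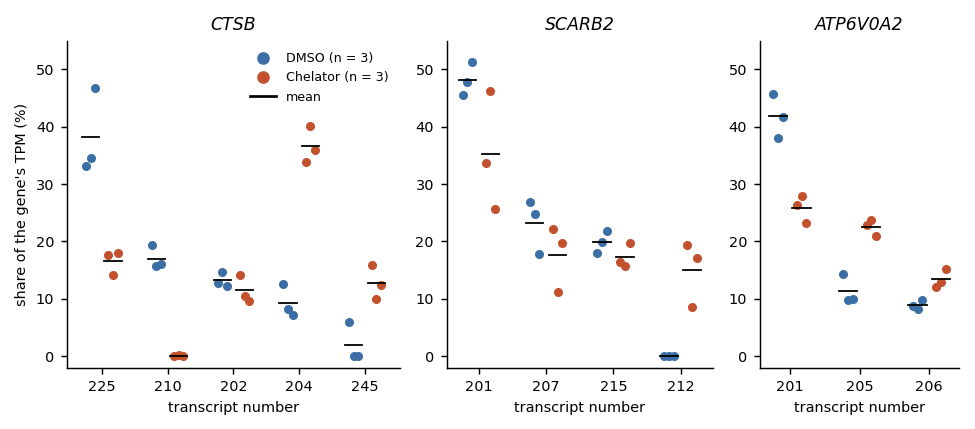
Share of each gene's TPM (%) held by single transcripts of CTSB, SCARB2 and ATP6V0A2, numbered as in the annotation. Blue points are DMSO and red points Chelator libraries (3 each), and black lines the means. CTSB-204 rises from 9.3% to 36.7% on average, SCARB2-212 appears in Chelator alone, and ATP6V0A2-201 falls from 41.9% to 25.8%.

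No such call was made for the other genes followed by transcript. LAMP2-202 made up 85.4% to 90.4% of LAMP2 in the 6 libraries, and PSAP-201 made up 86.8% to 89.7% of PSAP. MITF was spread over several transcripts, with MITF-216 at 38.1% ± 7.87 in DMSO and 32.4% ± 7.05 in Chelator and MITF-203 at 33.6% ± 2.22 and 37.0% ± 9.56. TFEB could not be tested because fewer than 2 of its transcripts reached 10 counts in 3 libraries. TFEB-204 made up 90.0% to 99.0% of it. CTSZ passed the adjusted p (0.0385), but its largest move was 2.2 points.

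Transcripts that keep an intron took a larger share of many members in Chelator, and of none a smaller one without overlap. Among the 31 members tested for usage that have a transcript annotated as a retained intron, 15 had a higher share in every Chelator library than in any DMSO library (48.4%). A lower share in the same way was found in 0. TFEB, not tested for usage, also has such a transcript, with overlap. Of the 6591 genes of like abundance tested for usage that have such a transcript, 23.5% were higher and 8.74% lower in the same way. In CTSA, a carboxypeptidase that also protects beta-galactosidase, the share was 6.64%, 8.46% and 14.5% in DMSO and 24.9%, 28.4% and 30.0% in Chelator. In ATP6V0A2 it was 28.5%, 23.9% and 24.6% against 39.2%, 42.1% and 41.9%, and in ATP6V0A1 it was 16.9%, 19.1% and 17.0% against 20.1%, 24.6% and 23.8%. The other 12 had mean shares under 10% in both groups except GAA (8.84% ± 1.93 in DMSO and 17.6% ± 9.14 in Chelator). In the usage test of single transcripts (diffSpliceDGE) ATP6V0A2 passed. CTSA, ATP6V0A1 and GAA did not pass it (adjusted p = 0.999966, 0.453 and 0.999966).

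The difference from the background was smaller for transcripts annotated as targets of nonsense-mediated decay. Of 28 members tested for usage with one, 9 were higher without overlap (32.1%) and 0 lower, against 22.4% and 6.25% of 5150 genes of like abundance tested for usage. HEXA was unusual in that such transcripts made up most of its TPM, with 53.6%, 50.5% and 55.1% in DMSO and 59.9%, 63.2% and 65.6% in Chelator. In CTSB they went from 5.88%, 0.423% and 0.219% to 15.9%, 11.1% and 16.4%, and in CTSH from 16.4%, 13.1% and 19.9% to 23.4%, 22.2% and 22.6%. In the usage test of single transcripts CTSB passed, while HEXA and CTSH did not (diffSpliceDGE adjusted p = 0.658 and 0.0785). The members were not selected on these shares, and no test was made over them. Fragments were shorter in every Chelator library (above), and the part of this in the shares was not tested.

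**Figure D5:**
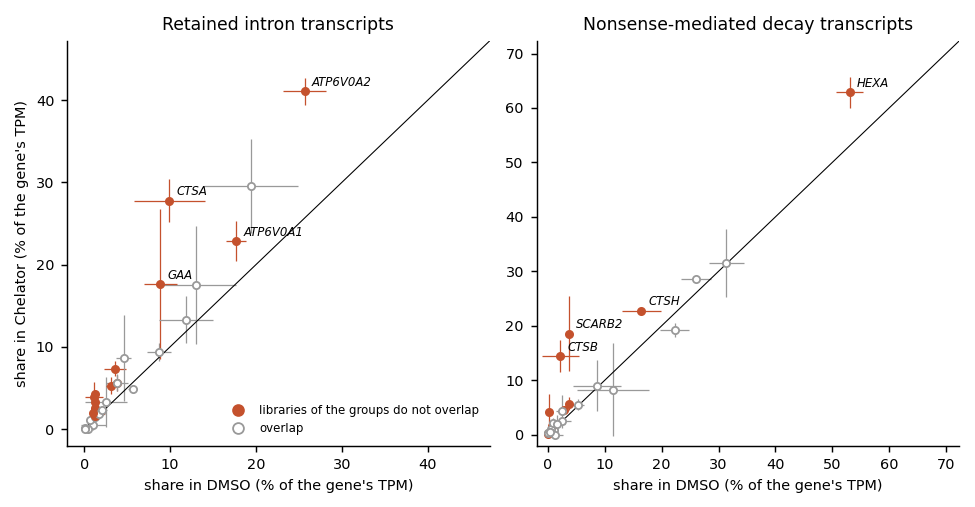
Mean share of each member's TPM (%) held by transcripts annotated as retained introns (left) or as targets of nonsense-mediated decay (right), in DMSO (horizontal axis) and in Chelator (vertical axis), with bars for the SD over 3 libraries and a line of equal shares. Red points are genes whose libraries do not overlap between groups, 15 on the left and 9 on the right. All of them lie above the line.

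Beyond the 39 genes, further lists of the same system were counted in the same fit, where 37.7% of all genes tested passed (19.5% higher, 18.3% lower) and 59.9% of the genes of like abundance (26.8% higher, 33.1% lower). Among 35 other lysosomal hydrolases, 10 were higher, 5 lower and 20 did not pass (42.9% passing), with a median log2 fold change of 0.17. NEU1, the lysosomal sialidase that works in a complex with CTSA and GLB1, had the largest rise, with 5438, 4746 and 5048 normalized counts in DMSO and 12657, 12323 and 13306 in Chelator (log2 fold change 1.33, SE 0.08, adjusted p = 3.66e-64). SGSH, a sulfatase of heparan sulfate, had the largest fall, with 865, 888 and 1293 against 581, 502 and 539 (log2 fold change -0.91, SE 0.16, adjusted p = 2.08e-07). Besides NEU1, the protease gene CTSK also passed a log2 fold change of 1. Among 26 other lysosomal membrane proteins, 9 were higher and 7 lower (61.5% passing), with a median of -0.01. LAMP3 rose the most (93, 125 and 75 in DMSO against 413, 282 and 320 in Chelator, log2 fold change 1.80, SE 0.25, adjusted p = 4.61e-12) and TMEM192 fell the most (log2 fold change -0.81, adjusted p = 7.23e-20), and LAPTM5 also passed a log2 fold change of 1.

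Of the 10 other V-ATPase paralogs 6 were tested, and 1 was higher, ATP6V1C2 (log2 fold change 0.62, adjusted p = 0.0276). It is a paralog of the subunit C gene ATP6V1C1, and its normalized counts of 113, 95 and 97 in DMSO and 161, 158 and 152 in Chelator were small beside those of ATP6V1C1. Of 10 genes of pump assembly 4 were higher and 3 lower (70.0% passing), led by TMEM9 (0.39, adjusted p = 3.81e-06) and WDR7 (-0.47, adjusted p = 0.000455). Of 9 genes of mannose 6-phosphate sorting, which tags hydrolases and brings them to the lysosome, 0 were higher and 4 lower (44.4% passing), with NAGPA at -0.58 (adjusted p = 9.2e-07). Of 16 tested genes that control the MiT factors, 1 was higher and 7 lower (8 of 16 passing). Both shares passing lay between that of all genes tested and that of the genes of like abundance. FNIP1, a partner of folliculin, was the higher one (2931, 3315 and 3105 against 4289, 4483 and 4507, log2 fold change 0.51, SE 0.08, adjusted p = 2.53e-09). RPTOR, the mTORC1 subunit that binds its substrates, fell the most (11873, 13557 and 12763 against 9529, 8373 and 8334, log2 fold change -0.54, SE 0.08, adjusted p = 1.05e-09). The other 6 were FLCN, FNIP2, LAMTOR3, MTOR, PPP3CB and PPP3R1.

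Markers of other blood cell types were counted too, beside 37.7% of all genes tested that passed, since many lysosomal genes are abundant in macrophages. Of 10 monocyte and macrophage markers 6 were tested and 3 were higher (SPI1, ITGAM and LYZ), with summed levels of 18.8 to 20.4 TPM in DMSO and 39.5 to 42.9 TPM in Chelator, while MARCO and C1QA were at 0 in all libraries. ITGAM had 19, 26 and 35 normalized counts in DMSO and 54, 123 and 66 in Chelator (log2 fold change 1.65, SE 0.47, adjusted p = 0.00171). Of 9 megakaryocyte markers 5 were tested and 2 were higher, with sums of 4.46 to 5.19 TPM against 7.60 to 9.28 TPM, and PF4 and SELP were at 0. ITGB3 rose by 1.95 on the log2 scale (193, 172 and 213 against 796, 686 and 757, adjusted p = 1.84e-35). The part of these markers in the changes of the lysosomal genes was not tested.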

How the data were processed

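Polyadenylated RNA from 6 K562 libraries was compared, 3 Chelator (10 µM 21H7) against 3 DMSO. The authors quantified reads with salmon (version 1.10.2 in the submitters' processing notes), and the deposited files give an estimated count per transcript that need not be whole. The authors' files also give TPM, in which each count is divided by the effective transcript length and every library has the same total. Effective length, the other column used, is the transcript length as corrected by salmon in the deposited files. The transcript annotation is not given in the sources used here. Of 252045 transcripts, 251142 matched GENCODE release 44 (GRCh38) in version and length, 470 in identifier only and 433 not at all. The last held 0.139% to 0.150% of counts and were left out.

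Estimated counts were summed per gene, rounded and tested with DESeq2 1.42.0 (R 4.3.3). The Wald test, a count threshold of 10 and Benjamini-Hochberg adjustment followed the study's methods. Set here, and not stated there, were median-ratio size factors, average transcript length as offset and adjustment over all genes. The threshold was applied as a gene total above 10. Transcript usage was tested with edgeR 4.0.16 (diffSpliceDGE with quasi-likelihood fits, a minimum of 10 counts in 3 or more libraries per transcript), and limma 3.58.1 served as an alternative. Scripts were tested on simulated data. Depth limits the precision most for GAA. Named with values in each library were the MiT factors, members past both thresholds, and in each role group up to 2 members with the largest rise and up to 2 with the largest fall at an adjusted p under 0.05, and 1 of each from every further list. Genes past a log2 fold change of 1 in the further lists (CTSK, LAPTM5), markers counted as higher and retained-intron examples were named after their values were seen. Promoter windows came from RefSeq (GRCh38.p14). The members and lists were chosen with earlier results of these data known.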

Additional observations from a re-analysis of the deposited data

How the results depend on the processing

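Each result was recomputed under 16 alternatives for expression and 10 for usage, 1 of which (the likelihood ratio test) was chosen after seeing the data. All 23 called members kept their direction in all 16, and 13 also kept their call in all 16: TFE3, ATP6V1A, ATP6V1C1, ATP6V1E1, CTSB, CTSL, CTSZ, CTSC, CTSH, PSAP, NPC2, LAMP1 and NPC1. Centring on the mean log2 change of all genes moved their median from 0.02 to -0.17; members higher then numbered 8 and lower 15, pump genes 1 and 7, and hydrolases higher 3, and the called genes past the fold split as 1608 higher and 1130 lower against 2007 and 639. Hydrolases lower numbered 2 with TMM factors, edgeR's quasi-likelihood test and limma on log2 TPM with a pseudocount of 1 or 0.1; limma gave 5 members lower with either pseudocount, and called 797 genes past the fold with a pseudocount of 1 against 2646. With GC and length trends removed, 5 pump genes were lower and 3 hydrolases higher.

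Leaving out 1 library at a time, pump genes lower ranged from 3 to 5 (5 without DMSO replicate 2), hydrolases higher from 3 to 4 (3 without DMSO replicate 3 or Chelator replicate 3) and hydrolases lower from 2 to 5 (2 without DMSO replicate 3). Usage calls over all genes ranged from 539 (without Chelator replicate 3) to 1063, against 1101, with 592 without Chelator replicate 2. Members called ranged from 1 (without Chelator replicate 2 or 3) to 5 (without DMSO replicate 1). With a Chelator library left out, transcripts absent from DMSO could not meet the count minimum of the usage test. The SCARB2 transcript absent from DMSO was therefore not tested in those settings. With limma 3184 genes and 12 members were called for usage, and with the likelihood ratio test 2270 and 9; CTSB was called in all of these. Correlations of same-numbered deviations were -0.07, 0.13 and 0.11, and those of the other pairs -0.16 to 0.08. With 3 libraries per group these cannot settle whether the replicate numbers pair the libraries. With a replicate block 2345 genes passed both thresholds, 923 were called for usage, and the same 3 members.

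The log2 fold changes that turned sign all belonged to members that did not pass in the fit as reported, but without the length offset ATP6V0E1 and SCARB2 passed in the turned direction (adjusted p = 0.0241 and 0.0153). Centred on the mean they were -0.0052 for ATP6V0C, -0.18 for ATP6V0E1, -0.048 for ATP6V1F, -0.17 for ATP6AP1, -0.052 for CTSD, -0.069 for TPP1, -0.087 for GLB1, -0.12 for LAMP2 and -0.11 for SCARB2. With GC and length trends removed they were -0.12 for ATP6V0C, -0.0062 for ATP6V1F, -0.19 for ATP6AP1 and -0.13 for CTSD. Without the length offset they were -0.26 for ATP6V0E1, -0.039 for LAMP2 and -0.23 for SCARB2. With at least 10 counts in 3 libraries ATP6V0E1 was at -0.0012. Without 1 library at a time ATP6V0E1 ranged from -0.15 to 0.094, ATP6AP1 from -0.059 to 0.10 and LAMP2 from -0.0047 to 0.087. The cause was not tested.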
